A study of Mus musculus with 42 samples.

Results

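RNA polymerase II (Pol II) and histone H3 acetylated at lysine 27 (H3K27ac) were compared in wild-type (WT) macrophages after 18 h of lipopolysaccharide (LPS), an outer membrane molecule of Gram-negative bacteria that activates these cells. The comparison rests on 6 of the 42 libraries of the series, 3 per antibody, made by chromatin immunoprecipitation and sequencing. A region was used where it was found in at least 2 of the 3 libraries of an antibody, which gave 34932 Pol II and 37132 H3K27ac regions, and regions that shared at least 1 bp were counted as overlapping. Bone marrow of male C57Bl6/J mice aged 6 to 12 weeks had been cultured for 7 days with L929-conditioned medium to give macrophages, which then received 100 ng/ml LPS for 18 h (WT 18 h) or none (WT 0 h). WT cells after 1 h of LPS (WT 1 h) and cells of littermates without Nur77 (KO), whose floxed Nr4a1 gene was deleted in the whole body by a CMV-driven Cre, served for reference. The KO identity rests on the sample titles and the study's methods, since the genotype label of these samples reads only "cre". The study's methods call the replicates biological, but nothing in the labels says whether libraries with different numbers came from different animals or cultures, so every p-value measures only the spread between these libraries.

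Pol II transcribes protein-coding genes. It gathers near the start of a gene, moves through the gene body and runs past the 3′ end before it is released, so its signal spreads along a transcribed gene. Acetylation of H3 at lysine 27 marks nucleosomes beside active promoters and enhancers. In LPS-activated macrophages, early inflammatory genes are followed by genes that respond to secreted interferon.

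The Pol II libraries held 26.2 to 35.1 M (mega) tags, the aligned reads counted, and the H3K27ac libraries 15.0 to 31.1 M. Levels are given as tags per 10 M tags of the library, called normalized tags, and mostly per kb. The smallest window that could pass the region search held 5.12 to 5.82 normalized tags for Pol II and 5.46 to 7.98 for H3K27ac, so a value of 0 means that no region passed there, not that reads were absent. The single WT 18 h input library, made without antibody, gave 95491 regions, and 52.8% to 53.7% of the regions of a Pol II library and 71.0% to 74.8% of those of an H3K27ac library overlapped one. All 8 macrophage markers examined were found with both antibodies, with a summed density of 901 to 1038 tags per kb for Pol II and 1481 to 1498 for H3K27ac. The 33 markers of other cell types together reached 66.9 to 78.7 and 165 to 174 tags per kb, 19 of them were found with neither antibody and 5 with both. Cd3e, Cd8a, Ly6g, Mpo and Col1a1 were listed at 0 for both, whereas Xcr1, of the dendritic list, held 36.2, 29.1 and 34.0 tags per kb for Pol II and 54.4, 55.4 and 51.5 for H3K27ac, and Ms4a1, of the B cell list, 65.1, 72.6 and 67.7 for H3K27ac. Pecam1, which is in a longer endothelial list but not among the 33, held 183, 203 and 213 H3K27ac tags per kb. A change in the share of cells cannot be told apart from a change per cell in such bulk libraries. In KO 18 h, H3K27ac replicate 1 stood apart from its replicates, and counts that rest on it are given with and without it.

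Pol II covered 1.88 times the length that H3K27ac covered, at a lower density. The Pol II libraries held 47035, 47838 and 49093 regions and the H3K27ac libraries 37079, 38943 and 42204. These regions covered 189 ± 8.99 Mb for Pol II and 100.4 ± 8.26 Mb for H3K27ac (mean ± SD, n = 3 libraries each, as for the values that follow). The density inside regions was 42.2 ± 1.83 normalized tags per kb for Pol II and 86.9 ± 6.17 for H3K27ac. In single libraries the median width was 1367 ± 31.5 bp for Pol II and 1730 ± 13.3 bp for H3K27ac, but among the merged regions found in at least 2 libraries the order turned, with 2228 and 2060 bp. In single libraries, regions over 10 kb made up 7.51% ± 0.486 of Pol II regions but 53.2% ± 1.91 of the length they covered. For H3K27ac these shares were 2.52% ± 0.218 and 15.8% ± 1.23. The ratio of lengths depended on the regions kept: merged regions of at least 30 tags per kb covered 93.2 Mb for Pol II and 83.4 Mb for H3K27ac, and those without an input region 41.1 and 14.8 Mb.

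The antibodies also differed in where their regions lay. A region within 1000 bp of the start of a protein-coding gene was called promoter, any other region that overlapped such a gene gene body, and the rest intergenic. In single libraries, promoters held 18.4% ± 0.400 of Pol II and 23.7% ± 1.15 of H3K27ac regions, gene bodies 64.5% ± 0.473 and 46.4% ± 0.735, and intergenic sequence 17.2% ± 0.193 and 29.9% ± 0.418. Among the regions found in at least 2 libraries the promoter shares were nearly equal, 24.6% and 25.0%, with 56.5% and 45.3% in gene bodies and 18.9% and 29.7% intergenic. By share of the tags in regions, promoters took 10.9% ± 0.377 for Pol II and 18.9% ± 0.558 for H3K27ac. The libraries of the 2 antibodies did not overlap in any of the 13 measures compared. Each measure gave an exact two-sided permutation p of 0.1, the smallest that 3 against 3 libraries allow, and 0.1 after Benjamini-Hochberg adjustment, so the design could not reach 0.05. Among regions of at least 30 tags per kb the direction turned for the number of regions, the median width and the promoter and gene body shares.

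Most tags of either antibody lay in regions that touched a region of the other, though less of the Pol II length was shared. Tags within the shared sequence itself were not computed. Of the Pol II regions, 21363 (61.2%) overlapped an H3K27ac region, and of the H3K27ac regions, 25991 (70.0%) overlapped a Pol II region. The shared sequence amounted to 81.3 Mb, which was 38.1% of the length under Pol II and 72.4% of the length under H3K27ac. The 13569 regions found for Pol II only held 5.17% ± 0.333 of the tags in Pol II regions, and the 11141 found for H3K27ac only held 3.41% ± 0.206 of those in H3K27ac regions. Between single libraries, over 9 pairs, 46.8% to 50.6% of Pol II regions and 65.3% to 73.5% of H3K27ac regions overlapped.

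Regions of a single antibody were weaker, narrower and less often found in all 3 libraries. The median density was 20.0 tags per kb in overlapping and 6.78 in Pol II-only regions, and 44.1 in overlapping and 13.6 in H3K27ac-only regions. Median widths were 2658 and 1767 bp for Pol II and 2580 and 1327 bp for H3K27ac. All 3 libraries held 90.6% of the overlapping and 56.1% of the Pol II-only regions, and 94.2% and 72.9% of the corresponding H3K27ac regions. The share that overlapped went from 17.4% in the lowest quartile of density to 99.0% in the highest for Pol II, and from 36.5% to 99.8% for H3K27ac, so the strongest regions were nearly all shared. An input region was met by 82.2% of overlapping and 31.6% of Pol II-only regions, and by 81.7% and 60.5% of the corresponding H3K27ac regions. Without the regions that met an input region, 23.3% of Pol II and 38.4% of H3K27ac regions overlapped, and the part of the input in the overlap was not tested.

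**Figure D1:**
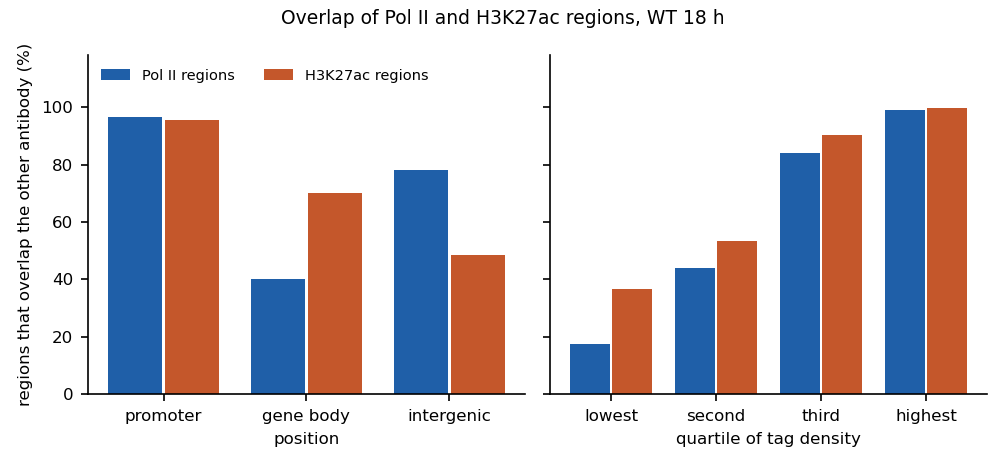
Share (%) of the Pol II regions (blue) and H3K27ac regions (orange) of WT 18 h macrophages that overlap a region of the other antibody by at least 1 bp, by position (left) and by quartile of tag density (right); each bar is a share of the regions found in at least 2 of 3 libraries. Promoter regions were shared in 96.5% and 95.7% of cases, Pol II regions in gene bodies in 40.1% and intergenic H3K27ac regions in 48.4%, and the share rose with density to 99.0% and 99.8%.

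Overlap depended on position. At promoters, 96.5% of Pol II and 95.7% of H3K27ac regions overlapped. In gene bodies 40.1% of Pol II and 69.9% of H3K27ac regions did, and in intergenic sequence 78.0% and 48.4%. Pol II-only regions were 87.1% gene body, 10.7% intergenic and 2.19% promoter, and H3K27ac-only regions were 45.4% gene body, 51.0% intergenic and 3.61% promoter.

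Within gene bodies, Pol II-only regions leaned towards the end of the gene, and the few in intergenic sequence lay mostly past gene ends. Of the 11816 Pol II-only regions in gene bodies, 16.1% had their centre in the first 25% of the gene, 22.5% and 25.3% in the following stretches of that length and 36.1% in the last 25%. For the 7923 Pol II regions in gene bodies that overlapped H3K27ac the shares were 23.0%, 26.0%, 23.8% and 27.3%. For the 5054 H3K27ac-only regions in gene bodies the shares were 24.5%, 27.5%, 25.6% and 22.4%. Of the 1456 intergenic Pol II-only regions, 939 (64.5%) lay within 10 kb past the end of a protein-coding gene. This share was 15.3% for the 5150 intergenic Pol II regions that overlapped H3K27ac and 10.6% for the 5685 intergenic H3K27ac-only regions. Of the intergenic Pol II-only regions of the other groups, 61.5% lay past a gene end in KO 18 h, 68.5% in WT 0 h, 73.1% in WT 1 h, 68.9% in KO 0 h and 61.1% in KO 1 h.

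KO 18 h libraries, which did not define these sets, were compared with them. Of the WT Pol II-only regions, 69.5% were found for Pol II in KO and 4.89% overlapped a KO H3K27ac region (2.68% without KO H3K27ac replicate 1). Of the WT H3K27ac-only regions, 90.7% were found for H3K27ac in KO (82.2% without that replicate) and 10.3% overlapped KO Pol II. Of the overlapping regions, 92.0% of Pol II and 98.2% of H3K27ac regions were found in KO, and 99.0% and 94.1% overlapped the other antibody there. Before LPS, at WT 0 h, Pol II overlapped 33.3% of the H3K27ac-only regions.

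The letters under the distal regions, those away from promoters, differed between the sets. In the central 300 bases, TGANTCA (N any base, either strand), the motif of AP-1, a factor family built from Jun, Fos and related proteins, stood in 14.5% of distal H3K27ac regions with Pol II and 19.4% of those without, and in 16.4% of all distal H3K27ac regions. For distal Pol II regions the order was the other way, with 13.7% in those with H3K27ac, 8.63% in those without and 11.2% of all. GAGGAAGT, a motif of PU.1, the lineage factor of macrophages, stood in 5.08% of distal H3K27ac regions with Pol II and 6.85% without, and in 5.47% and 1.85% of distal Pol II regions. These shares describe letters only and were not tested.

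The widest Pol II region joined whole genes, since 286084 bp on chromosome 6 over Tbxas1 (thromboxane synthase), Parp12 and Kdm7a formed 1 region, at 34.8, 34.0 and 34.9 tags per kb in the 3 libraries. The widest Pol II-only region covered 131757 bp inside Dennd1a at 14.0, 14.4 and 14.5 tags per kb, whereas the widest H3K27ac-only region, near Tspyl1, spanned 8954 bp. Of the Pol II-only regions 563 exceeded 10 kb, and of the H3K27ac-only regions 0 did.

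The densest Pol II-only region lay in Adgre1, which encodes F4/80, a surface receptor used as a macrophage marker. It reached from 57374132 to 57491705 on chromosome 17 (mm10), 15442 bp from the gene start, and held 207, 209 and 211 Pol II tags per kb against 0, 0.15 and 0.22 for H3K27ac. H3K27ac stood at the Adgre1 start itself, with 218, 234 and 236 tags per kb. Most of this 125 kb gene was thus under Pol II alone. An input region was met there too, so it lies outside the selection that follows and was named after its values were seen.

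The region near Npffr1, among the 3 densest H3K27ac-only regions that met no input region, is a tandem repeat, and its central bases are shown for that reason (genome GRCm38.p6, the assembly of mm10, plus strand). This intergenic region (centre chr10:61589012-61589311) held 49.7, 49.8 and 48.4 H3K27ac tags per kb with Pol II at 0. Of its bases, 90.3% match the base 42 positions further on, the best match of any shift up to 60. The 42 bases in capitals hold 2 near-identical copies of a shorter unit.
H3K27ac region near Npffr1: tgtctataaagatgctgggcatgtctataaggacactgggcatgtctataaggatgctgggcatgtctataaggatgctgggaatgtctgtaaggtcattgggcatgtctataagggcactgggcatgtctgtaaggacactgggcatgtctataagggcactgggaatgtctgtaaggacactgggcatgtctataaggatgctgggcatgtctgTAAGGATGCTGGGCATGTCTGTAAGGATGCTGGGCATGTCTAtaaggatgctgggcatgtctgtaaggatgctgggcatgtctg

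Reads from repeated copies cannot be assigned to 1 place with certainty. Masked bases filled over 50% of the central 300 bases in 10.9% of overlapping Pol II regions, 19.8% of Pol II-only regions and 36% of the 100 densest Pol II-only regions. For H3K27ac the shares were 9.84%, 13.9% and 13%. Tandem repeats made up 0.159% of overlapping and 0.361% of Pol II-only regions, and 0.277% and 1.10% of H3K27ac regions. The part of repeats in the regions of a single antibody was not tested.

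Around gene starts the signals had different shapes. Averaged over the 10779 genes found for both antibodies, H3K27ac reached 95.5, 90.4 and 90.9 tags per kb in the 3 libraries at 250 bp downstream of the start, and 12.8, 12.9 and 13.7 at 9750 bp. Pol II reached 48.5, 45.3 and 47.7 at 250 bp and still held 19.2, 19.5 and 19.5 at 9750 bp, above the 13.4, 13.4 and 13.3 it had at that distance upstream. H3K27ac thus stood close around the start, and Pol II was lower there but higher further into the gene. At 5250 bp downstream, Pol II regions covered 46.0% to 49.2% of these genes and H3K27ac regions 18.0% to 21.2%.

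**Figure D2:**
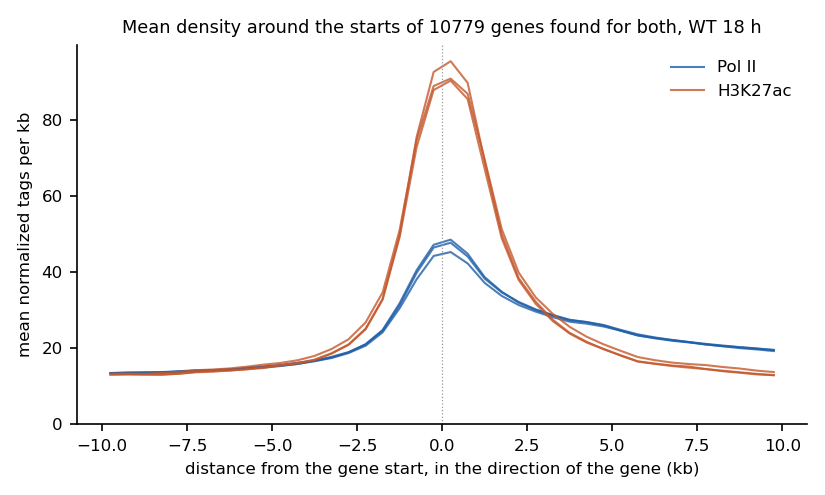
Mean normalized tags per kb in bins of 500 bp around the starts of the 10779 protein-coding genes found for both antibodies in WT 18 h macrophages, by distance from the start in the direction of the gene (kb); each line is 1 library, with 3 for Pol II in blue and 3 for H3K27ac in orange. H3K27ac peaks at 90.4 to 95.5 and Pol II at 45.3 to 48.5, and at 5250 bp downstream and beyond the Pol II lines stand above the H3K27ac lines.

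To compare genes, Pol II was summed from 500 bp before the start to 500 bp past the end and H3K27ac within 2500 bp of the start, both per kb, for 21884 protein-coding genes. A gene was found where the value was above 0 in at least 2 of 3 libraries. It was high where the mean lay in the upper quartile of the found genes, from 26.5 tags per kb for Pol II and 80.0 for H3K27ac. Most found genes were the same, since 12616 were found for Pol II, 11194 for H3K27ac and 10779 for both, which was 85.4% and 96.3% of each. Pol II alone was found at 1837 genes, H3K27ac alone at 415 and neither at 8853. Without regions that overlap the WT 18 h input, 1843 genes were found for both, 4975 for Pol II alone and 491 for H3K27ac alone. Most genes found for Pol II were then not shared. High genes were shared less, with 1726 high for both, 54.7% of the 3154 for Pol II and 61.7% of the 2799 for H3K27ac. Across the 10779 genes the log2 densities gave a Pearson r of 0.61 and a Spearman coefficient of 0.62, whereas replicates of 1 antibody gave a Pearson r of 0.980 to 0.993. Genes are not independent replicates, and neighbours within a wide region share its density.

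**Figure D3:**
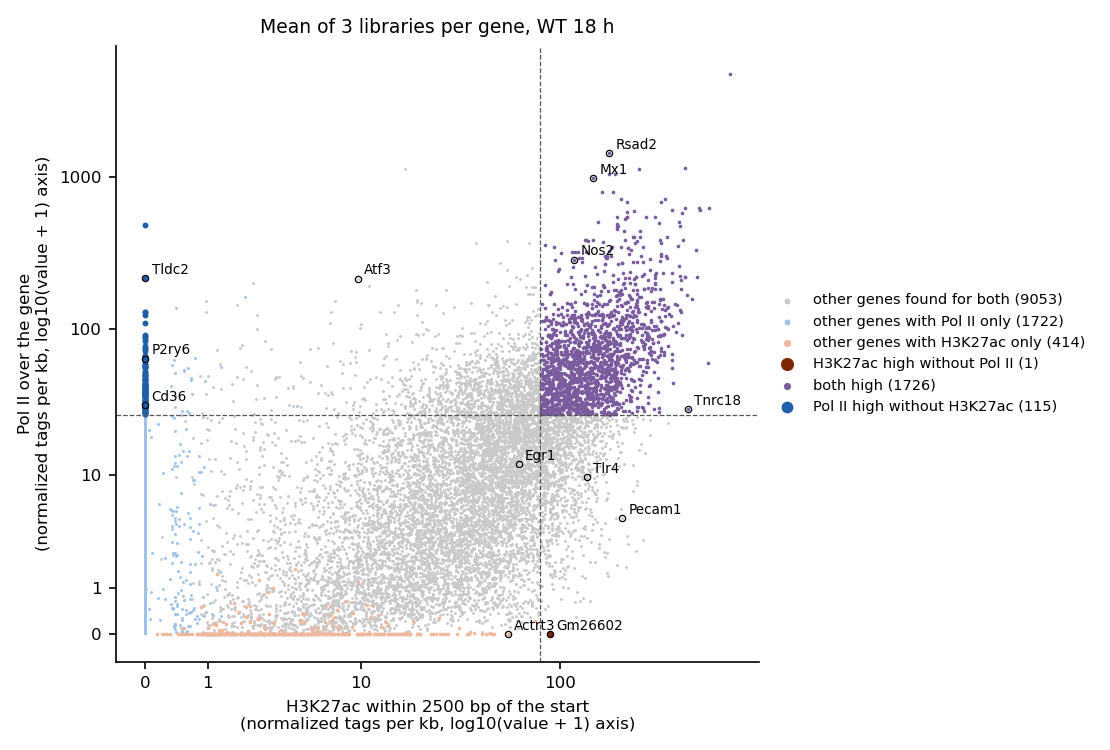
Each point is 1 protein-coding gene in WT 18 h macrophages, by mean H3K27ac density within 2500 bp of its start (horizontal) and mean Pol II density over the gene (vertical), both in normalized tags per kb of 3 libraries on a log10(value + 1) axis, with dashed lines at the limits for high, 80.0 and 26.5. The 1726 genes high for both fill the upper right, the 115 with high Pol II and H3K27ac at 0 stand on the left edge, and 1 gene, Gm26602, lies past the H3K27ac limit with Pol II at 0.

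Rsad2 and Mx1, both interferon-response genes, stood at the Pol II end of the genes high for both. The median log2 ratio of Pol II to H3K27ac was 0.17 over the 15 interferon-response genes and -1.22 over the 1726 genes high for both. Of the 915 whose window overlapped no other gene, Rsad2 had the highest ratio of Pol II to H3K27ac. Rsad2, which encodes the antiviral enzyme viperin, held 1863, 1221 and 1206 Pol II tags per kb against 165, 190 and 163 for H3K27ac. Mx1, an antiviral GTPase, held 996, 983 and 986 against 166, 157 and 110.5, and Acod1, the enzyme that makes itaconate, held 1005, 649 and 1485 against 208, 170 and 173. These 3 genes were chosen for their ratio, and had log2 ratios of the mean densities (each + 1) of 3.04, 2.77 and 2.50. Cmpk2, a nucleotide kinase next to Rsad2, lay in 1 Pol II region with Rsad2 in replicates 2 and 3 and had the same values there (1221 and 1206). Gm10800 was among the 5 highest ratios too, at 4503 to 5193 tags per kb for Pol II, but the input alone gave 23499 there. The single input libraries were also higher at these genes after LPS, going from 0.660 at 0 h to 20.0 tags per kb at 18 h over Rsad2, from 0.321 to 15.8 over Mx1 and from 2.89 to 21.3 over Acod1, and the part of this in the Pol II values was not tested.

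At the other end stood genes with a strongly acetylated start and moderate Pol II over the gene. Tnrc18 held 28.9, 27.5 and 30.5 Pol II tags per kb against 429, 396 and 426 for H3K27ac, a log2 ratio of -3.80. Zc3h4, a zinc finger protein, held 58.7, 56.0 and 61.1 against 526, 495 and 547. Arhgap25, a GTPase-activating protein, Cdk12, a kinase of the Pol II tail, and Gpbp1l1 held 29.0 ± 0.571, 29.2 ± 0.627 and 31.7 ± 8.20 for Pol II and 284 ± 13.4, 253 ± 12.5 and 268 ± 12.1 for H3K27ac (SD, n = 3). These 5 genes span 36.2 to 93.0 kb, whereas Rsad2, Mx1 and Acod1 span 13.7, 15.9 and 9.60 kb, and the Pol II density is a mean over the gene. Within 500 bp of the start, Pol II was higher at Tnrc18 (168 tags per kb) and Zc3h4 (273), and stood at 30.3 at Arhgap25, 50.2 at Cdk12 and 65.4 at Gpbp1l1.

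The promoters of Rsad2, Nos2 and Tnrc18 are shown to set induced genes with much Pol II beside a gene with a strongly acetylated start (300 bases, from 250 before to 50 after the start, GRCm38.p6). Rsad2 (minus strand, chr12:26456403-26456702) and Nos2 (plus strand, chr11:78920537-78920836) hold 6 and 3 CpG pairs, and Tnrc18 (minus strand, chr5:142817613-142817912) holds 21. Capitals mark TATAAA (the TATA box), TGANTCA, a short form of the interferon-stimulated response element (ISRE) and a loose form of the NF-kB motif on either strand, and matches may overlap.
Rsad2: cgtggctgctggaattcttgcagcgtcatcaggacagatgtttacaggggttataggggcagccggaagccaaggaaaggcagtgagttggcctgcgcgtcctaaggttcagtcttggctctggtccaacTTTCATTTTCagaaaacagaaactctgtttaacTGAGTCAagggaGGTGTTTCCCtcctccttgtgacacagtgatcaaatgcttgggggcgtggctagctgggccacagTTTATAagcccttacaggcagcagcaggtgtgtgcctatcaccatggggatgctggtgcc
Nos2: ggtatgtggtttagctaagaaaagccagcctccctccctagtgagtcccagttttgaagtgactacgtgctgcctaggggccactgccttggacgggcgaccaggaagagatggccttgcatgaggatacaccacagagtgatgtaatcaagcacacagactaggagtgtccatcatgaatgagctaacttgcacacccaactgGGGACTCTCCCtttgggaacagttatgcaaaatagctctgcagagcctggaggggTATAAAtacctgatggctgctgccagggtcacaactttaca
Tnrc18: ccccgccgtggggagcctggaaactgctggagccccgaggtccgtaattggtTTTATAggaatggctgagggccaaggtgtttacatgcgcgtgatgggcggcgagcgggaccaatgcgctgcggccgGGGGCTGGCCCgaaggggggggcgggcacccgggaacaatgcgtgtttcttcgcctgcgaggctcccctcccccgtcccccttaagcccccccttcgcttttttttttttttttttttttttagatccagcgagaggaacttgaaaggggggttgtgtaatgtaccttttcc

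The ISRE motif stood in 7 of 15 interferon-response promoters (46.7%), 6.95% of promoters of genes high for both and 3.55% of all 21884. TATAAA stood in 7 of 16 promoters of late LPS genes (43.8%) and 12.6% of all. The NF-kB motif stood in 55.5% and TGANTCA in 6.91% of all promoters. Promoters of genes found for both antibodies were rich in CpG pairs, with a median of 19 in 300 bases, against 7 for Pol II alone, 6 for H3K27ac alone, 4 for neither and 11 over all genes. These shares were not tested.

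Pol II was high with H3K27ac at 0 in all 3 libraries at 115 genes, 3.65% of the Pol II-high genes. Near the limit, Leap2 (26.7 tags per kb) and S1pr5 (26.8) fell inside and Rbpj (26.1) and Clta (26.0) outside. The class depended on the settings. Without regions that overlap the WT 18 h input it held 978 genes, of which 4 were among the 115. With Pol II within 500 bp of the start it held 36, of which 22 were among them. Most of the 115 shared their Pol II with a neighbour. The windows of 76 (66.1%) overlapped another gene window, against 52.3% of the 3018 Pol II-high genes where H3K27ac was found and 33.7% of all genes, and 91 (79.1%) lay in a Pol II region that reached the acetylated start of another gene, against 57.6% of those 3018. H3K27ac was found at another annotated start of 37 genes, somewhere in the gene at 50, and was listed at 0 over the whole gene at 63. The median length of the 115 was 7.92 kb against 9.52 kb for the 3018 and 17.4 kb over all genes, and their promoters held a median of 5 CpG pairs. Best1, an ion channel gene named after its values were seen, was the highest of them, with 417, 581 and 460 Pol II tags per kb, and its window overlaps that of Fth1, the ferritin heavy chain (1218, 1051 and 1167 for Pol II and 488, 364 and 352 for H3K27ac).

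Of the members whose window overlapped no other gene, Tldc2 was the highest, with 216, 212 and 216 Pol II tags per kb and H3K27ac at 0 over the whole gene. It held 19.7, 25.1 and 23.3 at WT 0 h and 251, 252 and 256 in KO 18 h, and its Pol II region reached the acetylated start of another gene. Adamtsl4, a secreted matrix protein, held 129, 125 and 131 within a Pol II region of 247311 bp, and had 201 ± 2.29 H3K27ac tags per kb at another start 10766 bp away. P2ry6, a receptor for UDP, held 63.6, 62.3 and 63.3, with 145 ± 6.76 for H3K27ac at a start 10283 bp from the one used. For Adamtsl4 and P2ry6 the missing H3K27ac thus depended on the start chosen.

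Oas1h, of the oligoadenylate synthetase family of antiviral genes, held 54.5, 51.9 and 47.0 Pol II tags per kb with H3K27ac at 0 over the whole gene, after 3.17, 4.03 and 2.68 at WT 0 h. Fndc11 held 63.5, 52.3 and 57.6 after 0 in every WT 0 h library, and Dgke, a diacylglycerol kinase, 61.3, 61.8 and 58.8 after 14.1, 9.98 and 7.02. Tnfrsf8, the receptor CD30, held 54.3, 52.7 and 56.6 after 7.54, 8.78 and 8.98, and 142, 146 and 140.5 in KO 18 h. H3K27ac was 0 at its start but 105 tags per kb over the gene, and Pol II within 500 bp of the start was 0. The Pol II regions at Oas1h, Fndc11 and Dgke reached the acetylated start of another gene, and Dgke had 7.29 H3K27ac tags per kb at another of its starts and Pol II at 0 within 500 bp of the one used. These 4 genes were chosen for high Pol II at 18 h, which favours a rise. At WT 1 h, Tnfrsf8 held 121.98, 117.79 and 121.52 Pol II tags per kb, above its 18 h values. Oas1h, Fndc11 and Dgke stood below theirs at that time. The 18 h values of all 4 genes lay above every 0 h value of the same gene. In contrast, Slc10a1, a bile acid transporter (52.9, 57.3 and 56.5), and Gm11634 (73.3, 70.5 and 102) overlapped their 0 h values of 47.3 to 59.5 and 72.1 to 105. Rxfp4, a peptide receptor (49.9, 52.8 and 50.9), stood below its 0 h values of 55.4 to 64.1. Rxfp4, Fxyd4 and Tmprss2 were the 3 of the 115 with no other gene in their window, no Pol II region reaching another acetylated start and H3K27ac at 0 over the whole gene. Tmprss2, a serine protease, held 27.6, 30.9 and 31.2 Pol II tags per kb after 0.579, 0.612 and 0.412 at 0 h.

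KO libraries, which did not choose these genes, gave the same found pattern for 113 of the 115 (98.3%), near the 96.7% over all genes and the 99.7% over Pol II-high genes with H3K27ac. With the limits of KO 18 h, 90 were again Pol II-high with H3K27ac at 0, and 100 without KO H3K27ac replicate 1. In KO, 37 of 115 had more Pol II at 18 than at 0 h and 7 had less (limma on log2(normalized tags + 10), Benjamini-Hochberg adjusted p under 0.05 and absolute log2 change over 1). Over all 13406 genes tested in KO, 12.7% were called higher and 18.1% lower. The 115 were chosen for high Pol II at 18 h in WT, which favours a rise. Of 1725 genes high for both that were tested in KO, 425 were called higher and 103 lower. H3K27ac could be tested in KO at 15 of the 115, where 0 were called higher and 4 lower, against 6.08% and 9.90% of the 11986 genes tested. Since 113 kept the pattern without H3K27ac in KO 18 h, most of the 15 passed the filter only through KO 0 h. They could hardly be called higher, so nothing is read from these counts. The median log2 change of Pol II in KO was 0.22 for the 115, 0.25 for the genes high for both and -0.18 over all genes. Pol II was found at 110 of the 115 already at WT 0 h, when 100 had H3K27ac at 0. The class counted 101 genes in KO 18 h (119 without the replicate named above), 116 in WT 0 h and 89 in WT 1 h.

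High H3K27ac with Pol II at 0 was seen at 1 gene, Gm26602, a gene model of 0.285 kb that overlaps another gene window (89.0, 83.1 and 95.9 H3K27ac tags per kb). The count was 59 without input regions, with Gm26602 not among them. It was 99 with regions of at least 30 tags per kb and 0 with high from the upper decile. Without the upper quartile limit, H3K27ac was found with Pol II at 0 in all libraries at 329 genes, and the 10 highest that overlap no other gene were picked after this was known. Actrt3, an actin-related gene, held 53.5, 55.6 and 56.4 H3K27ac tags per kb and had no Pol II region at WT 0 h either. Bex6 held 52.1, 56.8 and 55.0, after 54.2, 56.7 and 66.1 for Pol II and 142.5, 165 and 142 for H3K27ac at WT 0 h. Egr3, an early response transcription factor, held 25.9, 25.9 and 28.9, after 35.4, 35.5 and 37.5 for Pol II at WT 0 h, and in KO 18 h Pol II was found there at 3.11, 5.40 and 3.08. At Bex6 and Egr3 the start was still acetylated at 18 h, at lower values than at WT 0 h (41.6, 40.1 and 43.5 at Egr3). The Pol II region of untreated WT cells was no longer found there. The others, BC030867, Atp6v1g3, Sectm1a, Slc6a16, Car6, Sdr16c6 and Gm10131, had mean H3K27ac densities of 27.9 to 57.0.

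All 15 interferon-response genes were high for both antibodies at 18 h, against 7.89% of all genes. Their median density was 245 tags per kb for Pol II and 173 for H3K27ac. Of 16 late LPS genes 12 were found for both, 4 were high for both (Nos2, Acod1, Ccl5 and Il27), and Il12b, Il12a, Csf3 and Marco were found for neither. Nos2, the inducible nitric oxide synthase, held 299, 292 and 267 Pol II tags per kb and 119.5, 115 and 115 for H3K27ac. Il6 held 13.2, 15.5 and 13.6 for Pol II and 47.2, 44.3 and 46.1 for H3K27ac, under both limits. The 10 early LPS genes were all found for both and 7 were high, among them Tnf with 727, 701 and 732 for Pol II and 186, 174 and 234 for H3K27ac.

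Genes of macrophage identity were mostly high for both, 13 of 18, with Spi1 (PU.1) at 151, 141 and 205 for Pol II and 414, 380 and 439 for H3K27ac. Some had 1 signal without much of the other. Tlr4, the LPS receptor, held 9.82, 9.52 and 9.63 Pol II tags per kb against 138, 139 and 128 for H3K27ac. Pecam1, an adhesion molecule from the endothelial and not the macrophage list, held 4.75, 4.24 and 5.22 for Pol II against the H3K27ac values given above. In both, the start was acetylated past the limit for high while Pol II over the gene was under it. Cd36, a scavenger receptor and one of the 115 genes above, held 29.9, 30.7 and 31.4 for Pol II with H3K27ac at 0 at the start used and 137 ± 3.34 at another annotated start 39009 bp away. Cx3cr1, the fractalkine receptor, held 6.60, 6.48 and 6.25 for Pol II with H3K27ac at 0.

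All 15 AP-1 genes were found for both and 6 were high, with Junb at 295, 294 and 289.9 for Pol II and 327, 323 and 342 for H3K27ac. Atf3, a stress-induced factor, held 214, 210.2 and 217 for Pol II against 10.0, 9.93 and 8.93 for H3K27ac at the start used, with 281 ± 26.4 at a start 34931 bp away. Of 67 replication-dependent histone genes, which are short and clustered, 63 were found for both, and their median log2 ratio of Pol II to H3K27ac was 0.95, against -1.79 over all genes found for both. Of 83 cytosolic ribosomal protein genes 81 were found for both and 19 were high, led by Rps9 (281, 258 and 287 for Pol II, 242, 229 and 235 for H3K27ac) and Rpl18 (237, 224 and 242, and 309.8, 296 and 336). Of 16 cell cycle genes 0 were high for both, and Top2a, Mcm3 and Rrm2 were found for H3K27ac only. Neither antibody was found at 35 of 39 HOX genes and 8 of 10 neuronal genes. Of the 3 NR4A genes, which include the one deleted in KO, Nr4a1 and Nr4a2 were found for both and Nr4a3 for H3K27ac only, with 0 high.

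Change with LPS was tested from 0 to 18 h per antibody, and as the Pol II change minus the H3K27ac change, with the limma fit and limits given above. Pol II was called at 26.8% of 13348 genes (12.7% higher, 14.1% lower) and H3K27ac at 15.3% of 11790 (6.44% higher, 8.81% lower). The difference was called at 17.4% of 13761 genes, with the Pol II change above the H3K27ac change at 9.07% and below it at 8.34%. Of these genes, 11377 were tested for both antibodies. Where H3K27ac was not tested, 268 genes with Pol II called higher were called upward and 406 with Pol II called lower downward. Where Pol II was not tested, 42 with H3K27ac called higher were called downward and 73 with H3K27ac called lower upward. Such calls rest on the change of a single antibody. Pol II is taken over the gene and H3K27ac at the start, so this difference compares unlike windows. With both antibodies within 2500 bp of the start, 1014 of 12430 genes were called, against 2396 otherwise, and values of that kind are given as start values.

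All 15 interferon-response genes rose for both antibodies, with median log2 changes of 4.88 for Pol II and 2.86 for H3K27ac, against -0.0036 and -0.034 over all genes tested. The Pol II change exceeded the H3K27ac change at 10 of the 15 and fell below it at 0, and by start values at 8 and 1. The single input libraries rose with LPS at all 15 too, from 0 to 6.87 tags per kb over these genes at 0 h to between 4.50 and 23.8 at 18 h. Without regions that overlap an input, 2 of the 15 could be tested for Pol II, with 0 called higher and 1 lower and a median of -0.25, and 0 for H3K27ac. The part of the input in these changes was not tested. Oasl1, of the oligoadenylate synthetase-like family, went from 0.484, 0.947 and 0.765 Pol II tags per kb to 158, 154 and 162, and from 25.0, 25.0 and 19.6 to 209, 184 and 185 for H3K27ac. The groups were far apart for both, and the difference was 3.91 ± 0.18 on the log2 scale (SE, limma adjusted p = 5.94e-09), with a start value of 1.21 ± 0.14. Rsad2 and Mx1 differed by 2.71 ± 0.20 and 2.85 ± 0.17, with start values of 3.19 and 3.24. Irf7, Isg15, Cxcl10, Stat2 and Usp18 did not pass, at -0.27, -0.59, 0.09, 0.75 and 0.43, and Usp18 had a start value of -1.38.

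Of the late LPS genes tested, 10 of 14 rose for Pol II and 10 of 12 for H3K27ac, and the difference was called upward at 7 and downward at 2 of 14. By start values, given for 13 of them, it was called upward at 5 and downward at 1. Saa3, an acute phase protein, was at 0 for Pol II in every 0 h library and at 227, 277 and 224 after 18 h, while H3K27ac went from 6.22, 5.58 and 4.20 to 52.5, 60.6 and 51.2 (difference 3.88 ± 0.17, limma adjusted p = 4.62e-09). Nos2 went from 0.545, 0.705 and 0.791 to 299, 292 and 267 for Pol II and from 0 to 119.5, 115 and 115 for H3K27ac. The Nos2 difference was 2.39 ± 0.13 (limma adjusted p = 3.49e-08), with a start value of 1.18, but -0.51 with a pseudocount of 1 in place of 10. Lcn2, an iron-scavenging protein, went the other way, with Pol II at 5.37, 3.81 and 4.56 and H3K27ac at 16.7, 19.0 and 19.4 after 18 h, the latter from 0 (difference -1.97 ± 0.26, limma adjusted p = 5.56e-05). Il27 was called downward over the gene (-2.24 ± 0.19) but not by its start value (0.065 ± 0.30). From WT 0 h to 18 h the single inputs went from 0 to 8.83 tags per kb over Saa3 and from 0.183 to 3.19 over Nos2. Over Lcn2 they stayed at 0. The part of the input in these changes was not tested.

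Of the 10 early LPS genes the difference was called at 1 in each direction, near the share over all genes. Ptgs2, cyclooxygenase 2, went from 2.48, 3.13 and 1.06 Pol II tags per kb to 138, 136 and 144, and from 4.50, 5.40 and 4.48 to 35.7, 28.1 and 26.1 for H3K27ac (difference 3.24 ± 0.28, limma adjusted p = 1.89e-06). Egr1, an immediate early factor, fell from 127, 129 and 143 to 11.5, 12.3 and 11.9 for Pol II, while H3K27ac stood at 48.4, 43.9 and 48.2 before and 65.0, 60.2 and 62.3 after (difference -3.71 ± 0.10, limma adjusted p = 1.22e-10). Ptgs2 thus gained more Pol II than H3K27ac, and Egr1 had less Pol II beside a start that was still acetylated. Start values were 2.37 and -2.41. From WT 0 h to 18 h the single inputs went from 2.51 to 11.4 tags per kb over Ptgs2 and stayed at 0 over Egr1. The part of the input in these changes was not tested. The other 8 did not pass the limits. Tnf, Nfkbia, Cxcl2 and Zfp36 had differences from -0.17 to 0.31, while Ccl3, Ccl4, Tnfaip3 and Ier2 stood at -0.69, -0.82, -0.83 and -0.70, under the limit of 1 in size. The median over the 10 was -0.43, against 0.04 over all genes tested.

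Of the 18 macrophage identity genes, 4 rose and 4 fell for Pol II, and among those that fell were genes where H3K27ac did not pass the test. Csf1r, the receptor for macrophage colony-stimulating factor, fell from 145, 172 and 161 to 73.2, 70.9 and 72.3 for Pol II, with H3K27ac at 128, 146 and 134 before and 176, 162 and 163 after. Lyz2, lysozyme, fell from 765, 783 and 761 to 193, 224 and 239, with H3K27ac at 134, 138 and 158 and then 110.1, 128 and 100.2. Their differences were -1.43 ± 0.11 and -1.47 ± 0.14, with start values of -3.64 and -1.47. Cd14, the LPS co-receptor, gave -1.58 ± 0.16, Tyrobp, a signalling adaptor whose Pol II change alone was not called, -1.40 ± 0.08 and Fos, of the AP-1 list, -1.19 ± 0.12, and all 5 were also called by their start values. Adgre1 rose for Pol II, from 32.8, 38.9 and 40.5 to 212, 213 and 214, with H3K27ac going from 111, 126 and 116 to 218, 234 and 236, a difference of 1.56 ± 0.11 and a start value of 0.97 that was not called. The difference was called upward at 3 of the 18 macrophage genes and downward at 5, and by start values, given for 17 of them, at 1 (Cx3cr1) and 4.

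Of the cell cycle genes, 10 of 16 fell for Pol II and 8 of 16 for H3K27ac, and the difference was called downward at 9, but by start values at 1 in each direction. Top2a, the topoisomerase of dividing cells, went from 5.30, 7.22 and 7.95 to 0.389, 0 and 0 for Pol II and from 28.3, 33.2 and 26.1 to 8.92, 6.74 and 7.48 for H3K27ac. Mcm5, a subunit of the replicative helicase, was the 1 that rose for Pol II, from 8.32, 9.46 and 6.27 to 19.4, 20.9 and 21.6, while H3K27ac fell from 46.8, 53.1 and 43.1 to 12.0, 14.0 and 13.5. The Mcm5 difference was 3.03 ± 0.18 (limma adjusted p = 7.13e-08) but -1.82 without regions that overlap an input. Of the histone genes, 36 of 65 fell for Pol II and 22 of 64 for H3K27ac, and the difference was called at 1 upward and 6 downward. The single inputs gave regions over many histone genes too. Hist1h4c held 14.7 input tags per kb at WT 0 h and 15.8 at WT 18 h, and Hist1h2ag 12.2 and 4.83. The part of the input in these changes was not tested. Of the 15 AP-1 genes 3 were called in each direction, but by start values 0 upward and 2 downward. The highest of the former was Jdp2, whose Pol II went from 3.16, 3.91 and 3.49 to 35.9, 34.8 and 36.5 and H3K27ac from 51.5, 51.5 and 54.8 to 68.0, 66.2 and 65.8 (difference 2.93 ± 0.11, start value 0.45 ± 0.12).

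**Figure D4:**
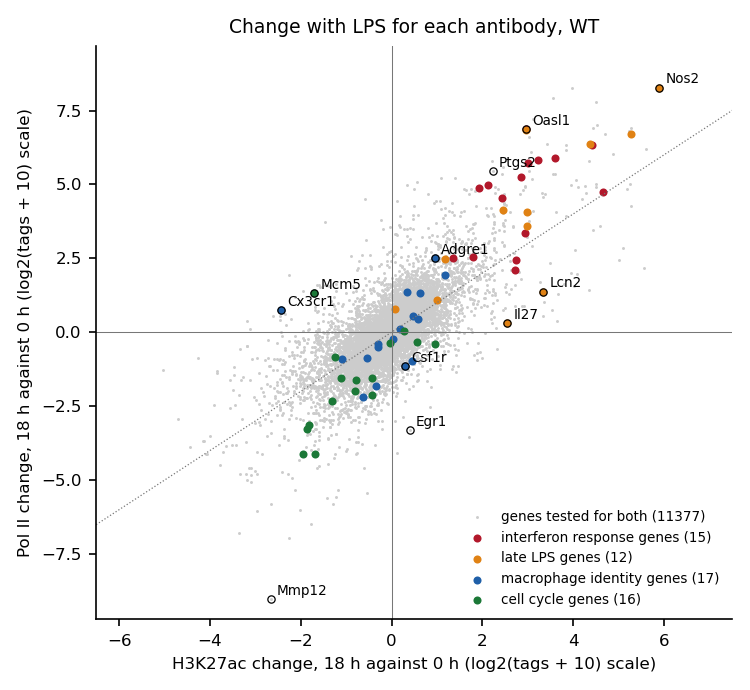
Log2 change from 0 to 18 h of LPS in WT for H3K27ac within 2500 bp of the start (horizontal) and Pol II over the gene (vertical), on the log2(normalized tags + 10) scale, for the 11377 genes tested for both; colours mark 4 gene lists, black outlines named genes and the dotted line equal change. Interferon-response genes, with medians of 4.88 for Pol II and 2.86 for H3K27ac, stand mostly above the line, and Egr1 and Mmp12 lie far below it.

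**Figure D5:**
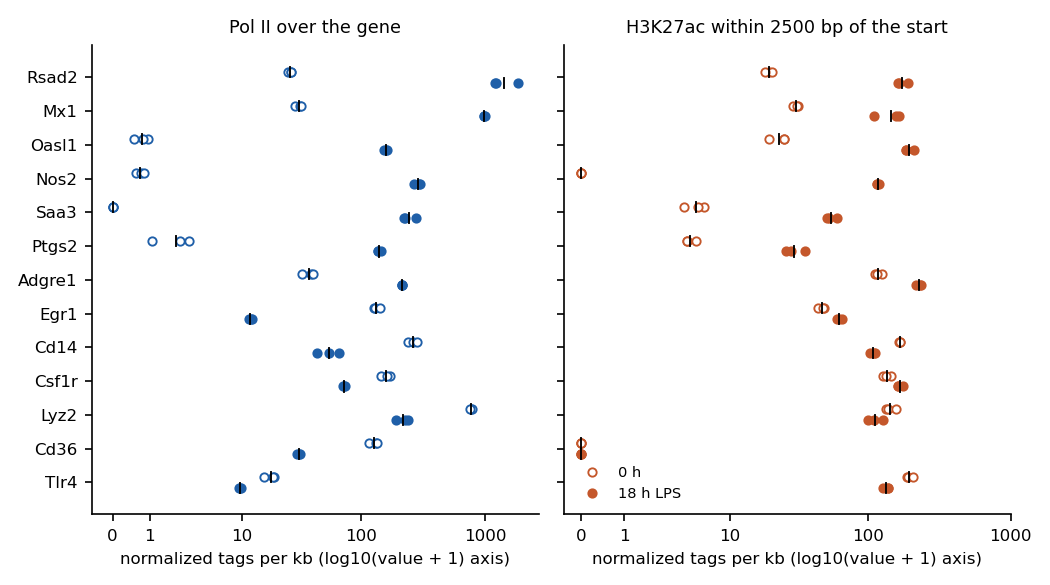
Normalized tags per kb in each library at 0 h (open) and 18 h of LPS (filled) for 13 genes, Pol II over the gene on the left and H3K27ac within 2500 bp of the start on the right, on a log10(value + 1) axis, with short black lines at the means of 3 libraries. Rsad2, Mx1, Oasl1, Nos2, Saa3, Ptgs2 and Adgre1 lie further right at 18 h for both antibodies, Egr1 and Csf1r lie further left at 18 h for Pol II only, and Cd36 stands at 0 for H3K27ac.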

How the data were processed

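ChIP-seq libraries of Pol II and H3K27ac from WT macrophages after 18 h of LPS (3 each) were compared, with WT 0 h, WT 1 h and KO libraries and inputs for reference. Chromatin was fixed for 10 min in 1% formaldehyde and sheared to about 400 bp. Reads were trimmed with Skewer, aligned to mm10 with HISAT2 2.1.0 and searched for broad regions with HOMER, per the labels and the study's methods. Per the file headers, the search used 500 bp windows, a Poisson p limit of 1.000000e-03, joining of windows under 1000 bp apart and no input control, so input signal was not removed. The deposited signal of a region is its tag number per 10 M tags of the library, as computed by the authors. Whole reads could not be recovered, so no count test was run. The catalogue number of the Pol II antibody in the labels is not that of the article, and this was not settled.

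Regions were merged over libraries and tags were spread evenly over each region. In the 6 libraries, 213 regions off the main chromosomes were left out, as were 54 genes with shared symbols, leaving 21884 protein-coding genes. Library measures were compared by exact two-sided permutation tests. Changes were fitted with limma 3.58.1 (R 4.3.3, trend, Benjamini-Hochberg over all genes tested) on log2(normalized tags + 10), a scale that understates changes of low values, for genes with a value above 0 in 2 or more libraries of either group. Called genes had an adjusted p under 0.05 and an absolute log2 change over 1. The scripts were tested on simulated data. Depth was 15.0 to 35.1 M tags per library, and a deeper library can show weaker regions. Tandem repeats were counted where at least 70% of bases matched at a shift of up to 60 bases. Figures were drawn with matplotlib 3.10.9.

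Genes named were those of the lists (for ribosomal proteins, the 2 highest), the 10 densest genes high for 1 antibody without the other and the 5 highest and 5 lowest ratios among genes high for both (no overlapping gene window), and the 5 largest called differences in each direction whose libraries did not overlap. Regions named were the 3 densest of each antibody alone without an input region and the 3 widest, of which a part is printed, and a few items of these lists are not reported here. Members and lists were chosen with earlier results of these data known. Alternatives covered thresholds, windows, pseudocounts, filters, centring, removal of regions that overlap an input, a replicate block and leaving out each replicate. Chosen after seeing the data were the classes without KO H3K27ac replicate 1, the densest regions whatever their input, and the places past gene ends and along genes.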

Additional observations from a re-analysis of the deposited data

Results flagged for a closer look

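The Pol II change and the H3K27ac change from 0 to 18 h differed at the 10 genes below by the limma test of the difference itself, each with 3 libraries per group and Pol II values that did not overlap between times. Wnk2, a kinase gene, was listed at 0 for Pol II in every WT 0 h library and held 13.1, 14.0 and 9.79 tags per kb at 18 h (adjusted p = 5.90e-11). Bace2, a protease gene, went from 0 to 16.3, 11.7 and 9.17 (adjusted p = 6.14e-10). Its Pol II lay in a region of 28738 bp that reached the acetylated start of another gene, the width of the region at Mx1, and Pol II within 500 bp of its own start was 0. Olfr1396, an olfactory receptor gene whose window overlaps another gene and whose Pol II region reached another acetylated start, went from 0 to 90.2, 87.8 and 89.8 (adjusted p = 1.33e-11). Fam3b went from 0 to 9.15, 8.30 and 13.2 in WT (adjusted p = 1.01e-09) and held 210.3, 196 and 208 in KO 18 h, a difference between genotypes that was not tested here. Clec2g, of the C-type lectin family, went from 0.288, 0.267 and 0.339 to 22.8, 23.8 and 22.2 (adjusted p = 1.02e-10).

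Downward, Slfn14, a Schlafen gene, went from 147, 163 and 136 Pol II tags per kb to 0 (adjusted p = 1.16e-11). Mmp12, the macrophage elastase, went from 203, 202 and 191 to 0 for Pol II, while H3K27ac went from 82.2, 87.5 and 85.1 to 11.1, 13.6 and 10.7 (adjusted p = 1.16e-11), and its window overlaps another gene. Vsig4, a complement receptor, went from 11.8, 14.5 and 10.8 to 0 (adjusted p = 9.42e-11), and Cd163, the haemoglobin scavenger receptor, from 16.6, 18.7 and 20.6 to 0 (adjusted p = 5.90e-11). Hdac9, a histone deacetylase, went from 0.726, 0.845 and 0.815 to 0, 0.0069 and 0.0070 (adjusted p = 2.08e-09).

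Apart from Mmp12, H3K27ac at the starts used was 0 in nearly every library of both times. The exceptions were 0.440 at Clec2g and 0.397 at Slfn14 in 1 library each at 18 h. The difference at these starts is thus the Pol II change alone. Constant H3K27ac values add no spread, so these p-values weigh no measured H3K27ac change. Against the test of Pol II alone, the SE was smaller at Vsig4 (0.15 against 0.31) and larger at Bace2 (0.22 against 0.18). Start values were 4.92 at Wnk2, 5.51 at Olfr1396, 3.67 at Clec2g, -3.71 at Mmp12 and -2.02 at Cd163, and the other genes had none. H3K27ac stood at other annotated starts of Fam3b (mean 78.1 tags per kb at 18 h), Clec2g (12.5) and Cd163 (2.21), where its change was not tested.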

How the results depend on the processing

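Over 229 results and 2204 alternative values, 2041 kept their direction and side of the threshold or moved by less than the spread or 1.5 times. Of the others 78 kept their direction but missed the threshold, 28 reversed and 57 moved further, and the cause was not tested except where named. Regions of at least 30 tags per kb turned 4 library differences (Pol II minus H3K27ac): the number of regions to -11059, the median width to 1404 bp, the promoter share to 24.2 and the gene body share to -17.8 points. Without regions that overlap the input the share of tags in regions turned to 1.24 points. The overlap of Pol II regions was 70.2% for regions found in all 3 libraries, 97.5% at 30 tags per kb and 23.3% without input regions, and 59.4% to 65.5% with 1 library left out. The overlap of H3K27ac regions was 50.5% at 30 tags per kb, 38.4% without input regions and 66.1% to 74.8% with 1 library left out. Pol II was high without H3K27ac at 350 genes with high from the median, 29 from the upper decile, 76 with H3K27ac at any start, 65 with H3K27ac over the gene, 36 with Pol II within 500 bp of the start, 978 without input regions and 110 to 129 with 1 library left out. Of the 115 genes, 63 were in the class with H3K27ac over the gene, 22 with Pol II within 500 bp, 65 (of 113) at 30 tags per kb and 4 without input regions. H3K27ac was high without Pol II at 9 genes from the median, 0 from the upper decile, 6 with H3K27ac over the gene, 7 with Pol II within 500 bp, 59 without input regions, 99 with regions of at least 30 tags per kb and 1 with any library left out, and Gm26602 was not among the 59. Without input regions 1843 genes were found for both, 4975 for Pol II alone and 491 for H3K27ac alone.

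Counts of called genes fell with a pseudocount of 50 to 2232 (WT Pol II), 864 (WT H3K27ac), 1301 (difference), 2585 (KO Pol II) and 963 (KO H3K27ac). Without regions that overlap an input, where fewer genes could be tested, they fell to 1904, 422, 2250 (KO Pol II) and 359 (KO H3K27ac). The share called higher then moved from 47.2% to 31.5% for WT Pol II, from 42.2% to 25.8% for WT H3K27ac, from 52.1% to 36.1% for the difference and from 41.2% to 29.6% and from 38.0% to 21.7% for KO Pol II and H3K27ac, and with a pseudocount of 50 to 57.1% for WT and 48.8% for KO H3K27ac. With 1 replicate left out the counts were 3586 to 3615, 1782 to 1886, 2352 to 2394, 4123 to 4165 and, for KO H3K27ac, 1217 (without replicate 3) to 2228, against 1916 with all. The difference gave 1014 called genes with both antibodies within 2500 bp of the start. With a replicate block the counts were 3577, 1797, 2399, 4125 and 1820. Same-numbered libraries did not deviate together, with correlations of at most 0.054, so the numbers were not taken to pair them. Centring moved the median KO Pol II change from -0.18 to -0.08.

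Single genes reversed as follows. Without regions that overlap an input, Nr4a2 and Syn1 gave 1.59 and 1.71 for H3K27ac, and Cd5, Mcm5, Mertk, Nr4a2, Syn1 and Usp18 gave -0.81, -1.82, -0.75, 0.93, 2.19 and -1.31 for Pol II. The difference then was -0.92 at Cd5, -1.09 at Cx3cr1, 1.31 at Kdr, -1.82 at Mcm5 and -0.75 at Mertk. With both antibodies at the start it was -0.0097 at Batf2, 0.38 at Ccna2, 0.57 at Cdk1, 0.18 at Fosl2, 0.065 at Il27, 0.077 at Mcm6, 0.24 at Nr4a1, -0.41 at Ptges and 0.11 at Tyms, and with a pseudocount of 1 it was -0.51 at Nos2. H3K27ac depth ranged from 15.0 to 31.1 M tags, which limits the weak regions that the shallowest library can show.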
